A study of Mus musculus with 12 samples.

Results

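The genes described here are 6 bZIP transcription factor genes of the AP-1 family and its close relatives (Fos, Fosb, Jun, Junb, Jund and Atf3) and 3 genes of dual-specificity phosphatases that act on MAP kinases (Dusp1, Dusp2 and Dusp6). They were chosen by name, with earlier results of these data known. All probe sets that the platform annotation assigns to these 9 symbols were taken, which gave 14 of the 12422 probe sets of the table that are not controls. Of the 14 probe sets 9, 1 for each gene, passed a filter on mean signal and were tested. The other 5 were too dim to be tested.

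The arrays held RNA of mouse thymocytes on day 6 of RTOC, reaggregate thymic organ culture, in which thymocytes and thymic stromal cells are brought together to form a lobe in culture. Each of 3 groups had 4 arrays, numbered 1 to 4 in the titles. OT1 is the group of thymocytes with the transgenic OT1 T cell receptor, for which the labels name no peptide. HY_low and HY_high are thymocytes with the transgenic HY receptor, which recognises a male peptide of the Smcy gene, cultured with Smcy peptide at 1e-07 M and at 1e-05 M. The labels give no strain, sex, age or source of stroma, and do not say whether cells of several animals were pooled or cultures were separate, so the p-values measure the spread between arrays only. The titles of HY_low begin with ab and those of HY_high with aa, letters that are not explained and that cannot be told apart from the dose. Receptor and Smcy peptide both differ between OT1 and the HY groups and cannot be told apart in comparisons with OT1.

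Engagement of the T cell receptor activates the Ras, ERK, JNK and p38 kinase cascades. Among the genes they switch on within minutes are Fos, Fosb, Jun and Junb, whose products pair through leucine zippers and bind AP-1 sites in DNA. The same signals induce dual-specificity phosphatases, which remove phosphate from threonine and tyrosine of the kinases and so limit the cascade. In the thymus the strength and duration of ERK signalling bear on positive and negative selection of thymocytes.

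The tested probe sets gave no difference between the groups that passed the threshold for any of the 9 genes. Jund lay above an intensity of 8 on all 12 arrays and varied with the array number. Dusp2 was also above 8 on all 12. Dusp6 was below 8 on every array, and its 4 HY_high values lay above its 4 HY_low values. Dusp6 and Jun passed the filter on mean signal only through their HY_high values. Most values of Fos, Fosb, Jun, Junb, Atf3 and Dusp1 were below 8, on a scale where the table's lowest value is 1 and its median 3.71.

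Promoters of 3 of the genes are shown, because cyclic AMP response elements (CRE) are known in the control regions of immediate early genes and these 3 illustrate where their core letters lie. Sequences are from RefSeq on GRCm38.p6, 250 bases before to 50 bases after the annotated start, 5′ to 3′ on the gene's strand. Fos lies at chr12:85473640-85473939 on the plus strand, Dusp1 at chr17:26508423-26508722 on the minus strand and Dusp2 at chr2:127335909-127336208 on the plus strand. Capitals mark the core TGACG on either strand, and in Dusp1 the full CRE, TGACGTCA, which overlaps 2 cores.
Fos: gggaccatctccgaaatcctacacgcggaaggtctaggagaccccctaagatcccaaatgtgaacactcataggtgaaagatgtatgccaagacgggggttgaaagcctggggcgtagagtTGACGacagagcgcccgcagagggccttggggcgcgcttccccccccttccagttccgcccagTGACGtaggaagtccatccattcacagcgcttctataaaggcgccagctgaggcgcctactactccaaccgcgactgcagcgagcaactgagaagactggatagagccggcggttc
Dusp1: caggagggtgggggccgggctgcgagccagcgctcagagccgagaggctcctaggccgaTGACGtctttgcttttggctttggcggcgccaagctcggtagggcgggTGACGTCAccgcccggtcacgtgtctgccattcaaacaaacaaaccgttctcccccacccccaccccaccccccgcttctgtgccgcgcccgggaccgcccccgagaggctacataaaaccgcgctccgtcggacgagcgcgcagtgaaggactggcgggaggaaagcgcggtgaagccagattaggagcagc
Dusp2: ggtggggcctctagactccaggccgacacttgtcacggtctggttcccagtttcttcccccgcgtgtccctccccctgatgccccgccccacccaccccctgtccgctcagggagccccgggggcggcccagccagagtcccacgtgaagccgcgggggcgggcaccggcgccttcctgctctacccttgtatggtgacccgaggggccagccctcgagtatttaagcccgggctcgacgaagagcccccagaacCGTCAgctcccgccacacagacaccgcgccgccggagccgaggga

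In Fos the core began 129 and 66 bases before the start, in Dusp1 191, 143 and 140 bases before it, and in Dusp2 at base 6 after it, on the opposite strand. The core, added after the sequences were seen, was found on either strand in 6 of 9 member promoters (Atf3, Dusp1, Dusp2, Fos, Fosb and Junb) and in 20.8% of 32851 promoters of the same length. The full CRE was in 1 of 9, Dusp1, and in 1.79% of all. The AP-1 site TGANTCA, where N is any base, was in 0 of 9 and in 7.81% of all, and the CArG box bound by serum response factor in 0 of 9 and in 1.63%. GGAA, the core of Ets factor sites, was in 9 of 9 and in 96.0%. A match to letters is a description of the sequence, and these letters may lie outside the window. Variant or longer sites were not counted, and the Jun promoter holds TGACATCA, which TGANTCA does not match.

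Jund encodes JunD, a Jun protein that many resting cells express steadily. In OT1 its intensities on arrays 1 to 4 were 359, 535, 649 and 324. In HY_low they were 445, 866, 1001 and 558. In HY_high they were 462, 659, 508 and 340. The groups overlapped in every comparison, and HY_low was above OT1 within each of the 4 numbers. Geometric means were 448 for OT1, 681 for HY_low and 479 for HY_high. The log2 difference between HY_low and OT1 was 0.60 ± 0.41 (SE, n = 4 per group, limma adjusted p = 0.99996), with a 95% confidence interval from -0.25 to 1.46. With the array number as a block the interval was 0.20 to 1.01 and the adjusted p 0.379, over 8695 probe sets. For HY_high against HY_low the difference was -0.51, with an interval from -1.37 to 0.35, or -0.92 to -0.10 with the block (limma adjusted p = 0.346 with the block). HY_high against OT1 gave 0.09, with an interval from -0.76 to 0.95. In the order of levels, OT1, HY_high, HY_low, neighbouring groups overlapped and their differences did not pass.

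**Figure D1:**
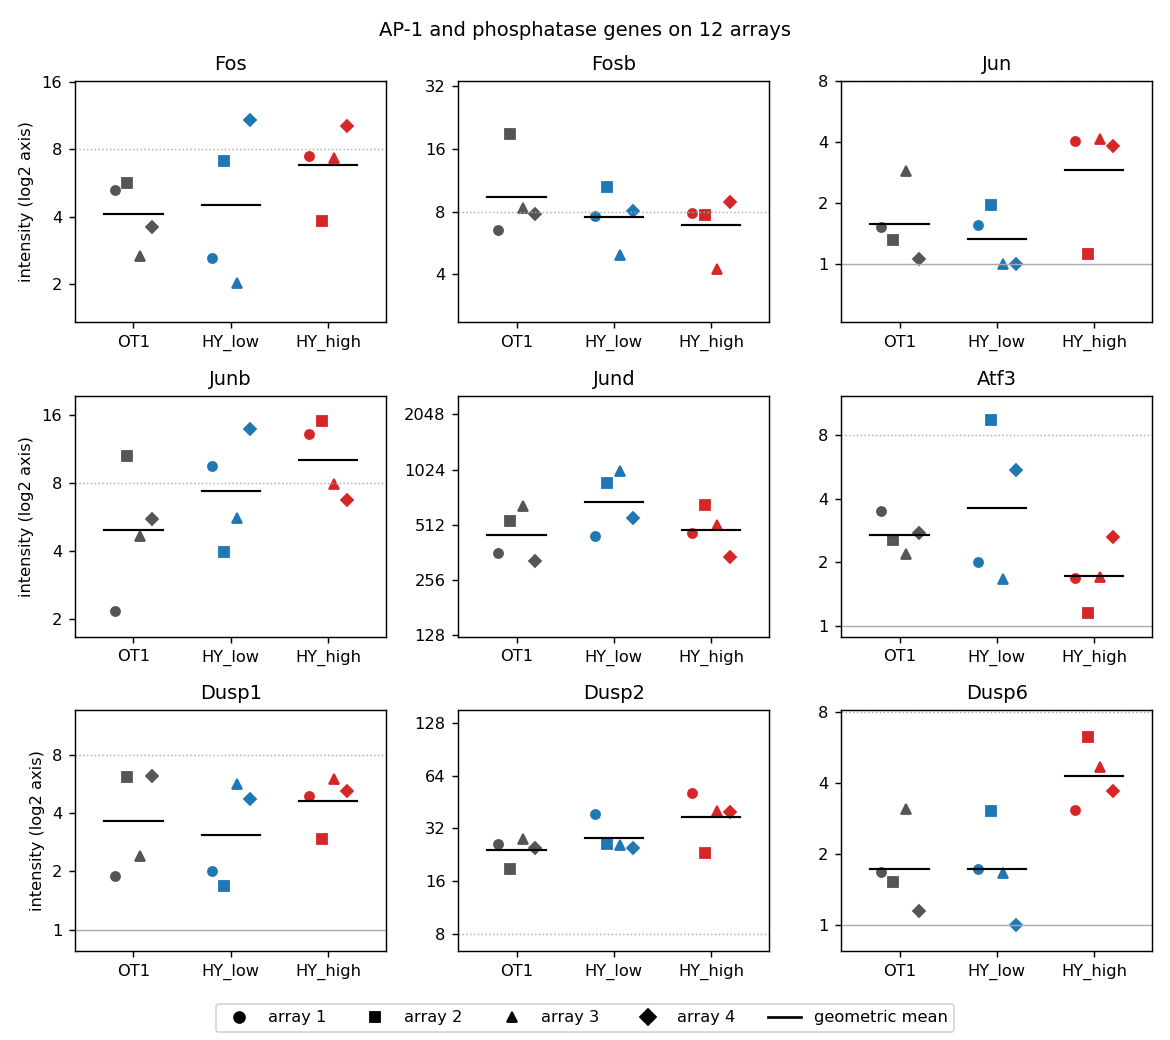
Deposited intensity of the tested probe set of each of the 9 genes (log2 axes with separate ranges) in OT1, HY_low and HY_high, 4 arrays each, with a bar at the geometric mean; dotted lines mark 8 and solid grey lines the lowest value of the table, 1, where they fall in range. Jund and Dusp2 lie above 8 on all 12 arrays, and Jun, Dusp1 and Dusp6 below 8 on all 12.

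The array number accounted for more of the variance of Jund than the group did. Over the 12 log2 values 58.6% of the variance lay between numbers and 29.4% between groups. The medians over all tested probe sets were 52.8% and 10.7%. The geometric mean over the 3 groups was 419 on arrays numbered 1, 673 on those numbered 2, 691 on those numbered 3 and 395 on those numbered 4. Jund differed between the numbers by limma's F test (adjusted p = 0.00926). It was the 1 member of 9 that did, where 38.7% of all tested probe sets did. Control probe sets at both ends of a transcript give a reading of RNA quality, and the 2 controls did not order the numbers alike. Signal at the 3' end of Gapdh over that at its 5' end, as a log2 ratio, was 5.60 to 6.26 on arrays numbered 2 and 2.95 to 3.27 on those numbered 4, with 4.57 to 4.87 on those numbered 1 and 4.69 to 5.48 on those numbered 3. For actin the same ratio was 2.59 to 3.60, 2.02 to 2.99, 2.74 to 3.39 and 2.15 to 2.54 on arrays numbered 1, 2, 3 and 4. In both controls arrays numbered 4 lay below those numbered 1 and 3. Arrays numbered 2 were the highest for Gapdh and overlapped each other number for actin. The part of RNA quality in the level of Jund was not tested.

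Fos encodes c-Fos, which binds DNA only as a dimer with a Jun protein. Its tested probe set read 5.28, 5.65, 2.66 and 3.60 in OT1, 2.62, 7.10, 2.02 and 10.8 in HY_low, and 7.50, 3.83, 7.35 and 10.2 in HY_high. The groups overlapped, and 2 of the 12 values were above 8. The log2 difference between HY_high and OT1 was 0.73 (95% interval -0.45 to 1.91, limma adjusted p = 0.9999). A second Fos probe set, not tested, was at 1 on 6 of 12 arrays and at most 3.78. For Fosb, a close homologue of Fos, OT1 read 6.50, 18.8, 8.31 and 7.79, HY_low 7.63, 10.5, 4.93 and 8.04, and HY_high 7.88, 7.72, 4.24 and 8.87. OT1 array 2 was the highest of the 12, and the other arrays of OT1 lay among those of HY_low and HY_high. The Fosb difference between HY_high and OT1 was -0.45 (95% interval -1.43 to 0.53, limma adjusted p = 0.9999), and -0.12 without OT1 array 2.

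Jun encodes c-Jun, the substrate for which the JNK kinases are named. In OT1 it read 1.52, 1.31, 2.88 and 1.06, in HY_low 1.56, 1.96, 1 and 1, and in HY_high 4.04, 1.12, 4.13 and 3.83. Of the HY_high arrays 3 lay above all 8 arrays of the other groups, and array 2 lay near the lowest value. All 12 values were below 8. Geometric means were 1.57 in OT1 and 1.32 in HY_low, both below the filter's cut of 1.76, and 2.91 in HY_high. Jun was thus tested only through HY_high, and its p-values for that group are a description. HY_high was higher than HY_low by 1.14 ± 0.51 on the log2 scale without passing (limma unadjusted p = 0.0391, adjusted p = 0.9997, or 0.419 with the block).

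Junb encodes JunB, an AP-1 subunit that can also hold back c-Jun. On its tested probe set OT1 read 2.16, 10.5, 4.66 and 5.55, HY_low 9.51, 3.96, 5.60 and 13.9, and HY_high 13.1, 15.0, 7.90 and 6.68. The groups overlapped, though HY_high was above OT1 within 4 of 4 numbers. That log2 difference was 1.03 ± 0.55 and did not pass (limma adjusted p = 0.9999, and 0.437 in the fit with the block). In HY_high against HY_low the tested probe set gave 0.46. In that comparison a second Junb probe set, below the filter, ran the other way. It read 1.40, 1.10, 1 and 1 in HY_high against 4.16, 1.97, 1.51 and 1.44 in HY_low, a log2 difference of -0.88 from the fit without the filter, which did not pass (limma unadjusted p = 0.0331). The second probe set was also lower in HY_high than in OT1, at -0.33. In HY_low against OT1 the tested probe set gave 0.58 and the second 0.55. The annotation places both probe sets under the same sequence, so no direction is given for Junb.

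Atf3 encodes a stress-induced bZIP factor of the ATF/CREB family that pairs with Jun proteins. Of its 3 probe sets 1 was at the lowest value on all 12 arrays and a further 1, also below the filter, read at most 3.11. The tested one, of a type that can share probes with related sequences, read 3.48, 2.55, 2.19 and 2.74 in OT1, 2, 9.41, 1.67 and 5.44 in HY_low, and 1.69, 1.16, 1.70 and 2.63 in HY_high. HY_low arrays 2 and 4 were the highest of the 12. HY_high was lower than HY_low with a log2 difference of -1.07 ± 0.54, which did not pass (limma adjusted p = 0.9997, and 0.449 with the block as a term).

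Dusp1 encodes a nuclear phosphatase of p38, JNK and ERK. It read 1.90, 6.16, 2.40 and 6.21 in OT1, 2, 1.69, 5.65 and 4.70 in HY_low, and 4.90, 2.95, 6.00 and 5.20 in HY_high. The 3 groups overlapped and all 12 values were below 8. The largest of its 3 log2 differences was 0.58, HY_high against HY_low (95% interval -0.57 to 1.73, limma adjusted p = 0.9997).

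Dusp2 encodes a nuclear phosphatase of ERK and p38 found mainly in haematopoietic cells. In OT1 it read 25.9, 18.8, 27.7 and 24.9 on arrays 1 to 4. In HY_low it read 38.7, 26.1, 25.7 and 24.8. In HY_high it read 51.0, 23.2, 40.1 and 39.7. HY_high arrays 1, 3 and 4 lay above all 8 arrays of the other groups, and array 2 lay among them. Geometric means were 24.1 for OT1, 28.3 for HY_low and 37.1 for HY_high. HY_high was above OT1 within 4 of 4 numbers, with a log2 difference of 0.62 ± 0.39 (limma adjusted p = 0.9999, 95% interval -0.19 to 1.44). With the block the interval was 0.11 to 1.14 (adjusted p = 0.300). HY_high against HY_low gave 0.39, with an interval from -0.43 to 1.204, and HY_low against OT1 0.23, with an interval from -0.58 to 1.05.

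Dusp6 encodes a cytoplasmic phosphatase selective for ERK. On its tested probe set the values were 1.67, 1.52, 3.09 and 1.14 in OT1, 1.73, 3.03, 1.66 and 1 in HY_low, and 3.08, 6.29, 4.68 and 3.71 in HY_high. Geometric means were 1.73 in OT1 and 1.72 in HY_low, both below the filter's cut of 1.76, and 4.28 in HY_high. The probe set was thus tested only through HY_high, and its overlap and p-values for that group are a description. The HY_high values did not overlap those of HY_low, which was so for 1 of 9 tested members and for 2.02% of all tested probe sets. Against OT1, and for HY_low against OT1, 0 of 9 were without overlap, where 2.53% and 1.63% of all were. From OT1 they were parted except by OT1 array 3, which was level with HY_high array 1. The log2 difference was 1.32 ± 0.47 against HY_low (limma unadjusted p = 0.0125, adjusted p = 0.9997) and 1.31 ± 0.47 against OT1 (unadjusted p = 0.0130, adjusted p = 0.805). The 95% intervals were 0.32 to 2.31 and 0.31 to 2.30. With the block the adjusted p was 0.270 and 0.186. These 2 comparisons share the HY_high arrays. All 12 values were below 8, so with intensities under 8 set to 8 no difference remains to be measured. A second Dusp6 probe set, not tested, read at most 1.91 and was at 1 on 7 arrays.

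**Figure D2:**
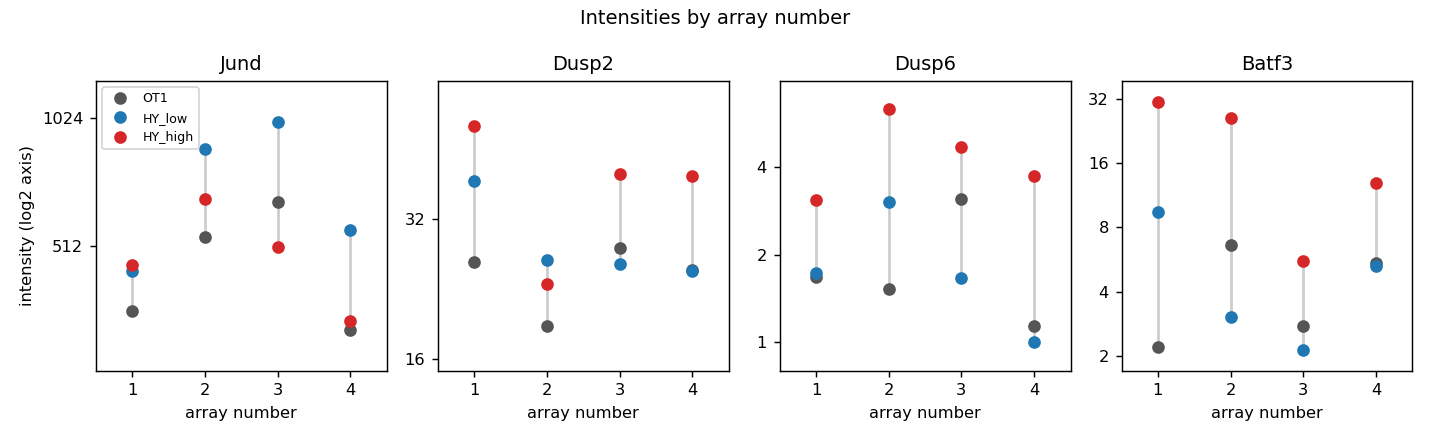
Deposited intensity (log2 axes with separate ranges) of Jund, Dusp2, Dusp6 and the AP-1 relative Batf3 by array number, coloured by group, a grey line joining the 3 arrays that share a number. Jund is highest in HY_low on arrays 2, 3 and 4, and Dusp6 and Batf3 are highest in HY_high within each of the 4 numbers.

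Over the 9 genes the calls in each comparison stand against few calls in the table as a whole. In HY_high against HY_low 0 of 9 passed, where 2 of 8695 probe sets (0.023%) did, or 0.345% with the block. In HY_low against OT1 0 of 9 passed, where 0.023% did, or 0.092% with the block. In HY_high against OT1 0 of 9 passed, where 0.173% did, or 1.36% with the block. With the block, too, 0 of 9 passed in each, the lowest adjusted p being 0.270, 0.379 and 0.186 in the same order. An unadjusted limma p under 0.05 was found for 2 members in HY_high against HY_low (2.96% of all tested probe sets), for 0 in HY_low against OT1 (2.65%) and for 1 in HY_high against OT1 (4.08%). The members were Dusp6 in both and Jun in the first, which were tested only through their HY_high values. With the block the counts were 4 members (11.1%), 1 (8.37%) and 2 (11.7%). The median log2 difference over the 9 was 0.46, 0.13 and 0.62 in the same order, where all tested probe sets had 0.01, 0.01 and 0.02. The differences ran one way within all 4 numbers for 2 members in HY_high against HY_low (19.6% of all tested), for 1 in HY_low against OT1 (17.1%) and for 4 in HY_high against OT1 (19.1%). Among the probe sets that passed, the smallest log2 difference was 2.79, 4.55 and 2.04 without the block and 1.16, 1.14 and 0.87 with it, in the same order. Size alone does not decide a call, since Dusp6 at 1.32 and 1.31 did not pass with the block. The 27 differences of the 9 genes were at most 1.32 in size.

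**Figure D3:**
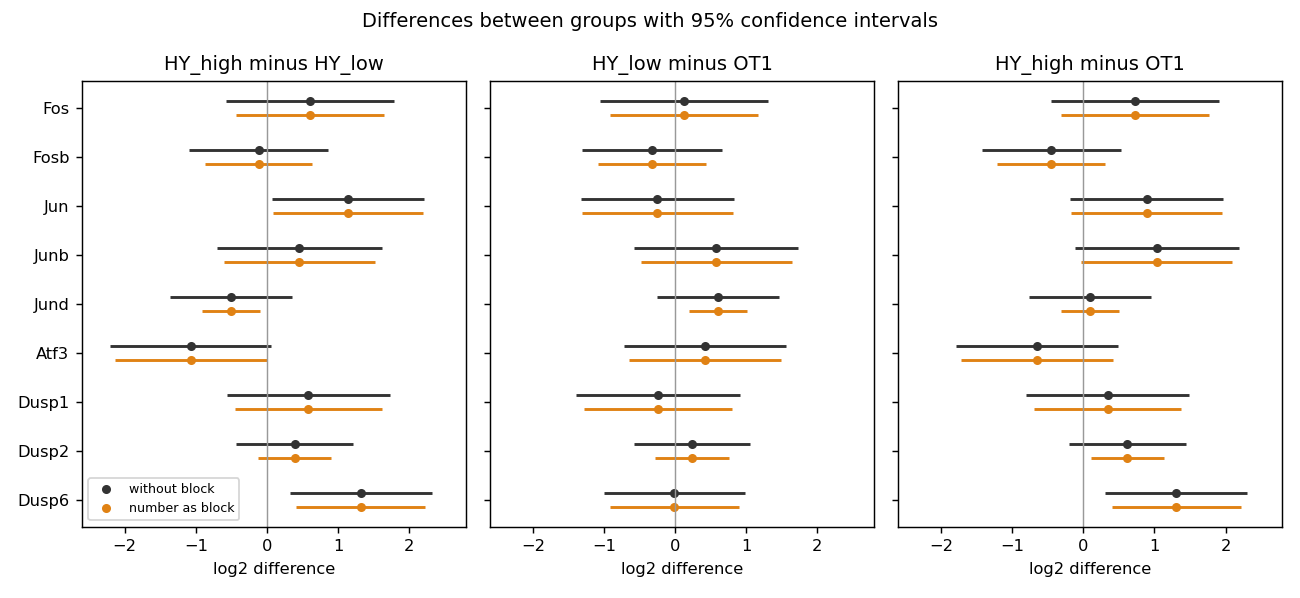
Log2 differences of the 9 genes in the 3 comparisons, with 95% confidence intervals of the limma fit without a block (dark) and with the array number as a block (orange). In HY_low minus OT1 the interval of Jund excludes 0 with the block alone, from 0.20 to 1.01, and no member passed after adjustment.

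Defining markers were read beside these genes. Of 12 thymocyte and T cell markers 11 were on the array, 7 of them above 8 on all arrays. Their summed intensity was 1787 to 2967 in OT1, 1625 to 3441 in HY_low and 737 to 1346 in HY_high. Their median log2 difference was -0.76 in HY_high against HY_low, with 1 of 11 higher. Against OT1 it was -0.48, with 3 of 11 higher. In HY_high 1 of the 11 passed as lower, Cd8b1, which encodes the CD8 beta chain, with a log2 difference of -7.15 from HY_low and -7.26 from OT1 (limma adjusted p = 0.000252 and 6.8e-05). With the block, Thy1, a surface glycoprotein of T cells, was also lower, with log2 differences of -1.24 from HY_low and -1.21 from OT1 (limma adjusted p = 0.0126 and 0.00564), and Cd2, an adhesion receptor, was lower than in OT1, with a difference of -1.05 (adjusted p = 0.0402). Markers of NK cells, 3 of 7 on the array, summed to 3.74 to 9.33 in OT1, 3.38 to 6.82 in HY_low and 14.4 to 24.7 in HY_high, and Ncr1 and Klrk1 were below 8 on all arrays. The third, Klrb1a, a lectin-like receptor of NK cells, passed as higher in HY_high, by 2.79 against HY_low and 3.07 against OT1 (limma adjusted p = 0.0487 and 0.0058). Its geometric means of 1.22 in OT1 and 1.49 in HY_low were below the filter's cut of 1.76, so it was tested only through HY_high, at 10.3. Without the filter 0 probe sets passed in HY_high against HY_low, so neither Klrb1a nor Cd8b1 passed there. Macrophage and dendritic cell markers, 14 of 14 on the array, summed to 115 to 327, 143 to 615 and 154 to 570, with 7 of them below 8 on all arrays. In HY_high against OT1 8 of the 12 tested were higher, with a median log2 difference of 0.29 and a lowest of -0.66. Of these Ctss, the protease cathepsin S, was higher within 4 of 4 numbers, by 1.004 on the log2 scale. It passed with the block (limma adjusted p = 0.0275, or 0.9999 without it). Of 8 thymic epithelial markers 7 were below 8 on all arrays. This held for 2 of 10 fibroblast and mesenchyme markers, which summed to 65.3 to 87.6 in OT1, 68.6 to 118.6 in HY_low and 61.5 to 100.4 in HY_high. Of the endothelial, B cell and erythroid markers on the array, 3 of 6, 4 of 6 and 2 of 3 were below 8 on all arrays. Cd8b1 and Klrb1a differed in the same comparisons that gave Dusp6 its largest differences. The part of other cells in the values of Dusp6, Dusp2 and Jun was not tested, and fewer cells of a type and less RNA per cell cannot be told apart in such samples.

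The wider pathway was read through 8 lists of genes that feed into AP-1 or share its signals. They hold 159 genes, of which 122 were on the array and 102 were tested. By limma 0 of the 102 passed in each comparison, with 5, 2 and 8 at an unadjusted p under 0.05 for HY_high against HY_low, HY_low against OT1 and HY_high against OT1. With the block 3 passed, all of them higher in HY_high than in OT1 and all among the 25 tested genes of the list of other immediate early genes. In that comparison 1.36% of all tested probe sets passed with the block. In the same comparison Cd8b1, Thy1, Cd2, Klrb1a and Ctss, markers of T, NK and myeloid cells, passed with the block too, and their part in these 3 calls was not tested. The median difference of this list was 0.41, against 0.02 over all tested probe sets. The lists were chosen with earlier results of these data known, so these counts and medians are a description only.

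Zfp36l1, an RNA-binding protein that promotes decay of AU-rich mRNAs, was one of the 3. It read 7.47, 35.8, 48.5 and 31.5 in OT1, 11.04, 53.7, 58.3 and 56.5 in HY_low, and 42.3, 95.5, 92.1 and 134 in HY_high. Arrays numbered 1 were the lowest in each group, and the order OT1, HY_low, HY_high held within 4 of 4 numbers. Between HY_high and OT1 the log2 change was 1.73 ± 0.64 (limma adjusted p = 0.839, and 0.00209 with the block).

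Nr4a2, an orphan nuclear receptor induced by receptor signals, read 1.99, 2.26, 1.58 and 1 in OT1, 7.24, 8.20, 2.65 and 5.27 in HY_low, and 11.7, 5.49, 5.66 and 11.3 in HY_high. OT1 did not overlap either HY group, where 1.63% of all tested probe sets were without overlap for HY_low and 2.53% for HY_high. HY_high was above OT1 by 2.29 ± 0.50 (limma adjusted p = 0.103, and 0.0107 with the block). With intensities under 8 set to 8 the difference was 0.26. Egr2, a zinc finger factor induced through ERK, stood 2.03 ± 0.79 higher on the log2 scale (limma adjusted p = 0.942, and 0.0425 with the block). It was higher in HY_high within 3 of 4 numbers, since OT1 array 2 was at 33.3 and HY_high array 2 at 27.5.

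Among the AP-1 partners and relatives, 14 of 25 genes were tested and 0 passed, with medians of 0.28, 0.05 and 0.16 in HY_high against HY_low, HY_low against OT1 and HY_high against OT1. Batf3, a bZIP factor that pairs with Jun proteins, had the smallest p. It read 2.19, 6.63, 2.75 and 5.46 in OT1, 9.50, 3.05, 2.12 and 5.27 in HY_low, and 31.2, 26.3, 5.55 and 12.9 in HY_high. HY_high was the highest group within 4 of 4 numbers, though its array 3 was lower than OT1 array 2 and HY_low array 1. Against OT1 it stood 2.02 ± 0.62 higher on the log2 scale without passing (limma adjusted p = 0.516, and 0.0525 with the block). Crem, a CRE-binding relative, had 1.09 ± 0.47 in HY_high against HY_low (limma adjusted p = 0.9997). All 4 HY_high values, from 5.03 to 11.8, lay above those of HY_low, from 2.61 to 4.36. In that comparison 2.02% of all tested probe sets were without overlap.

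**Figure D4:**
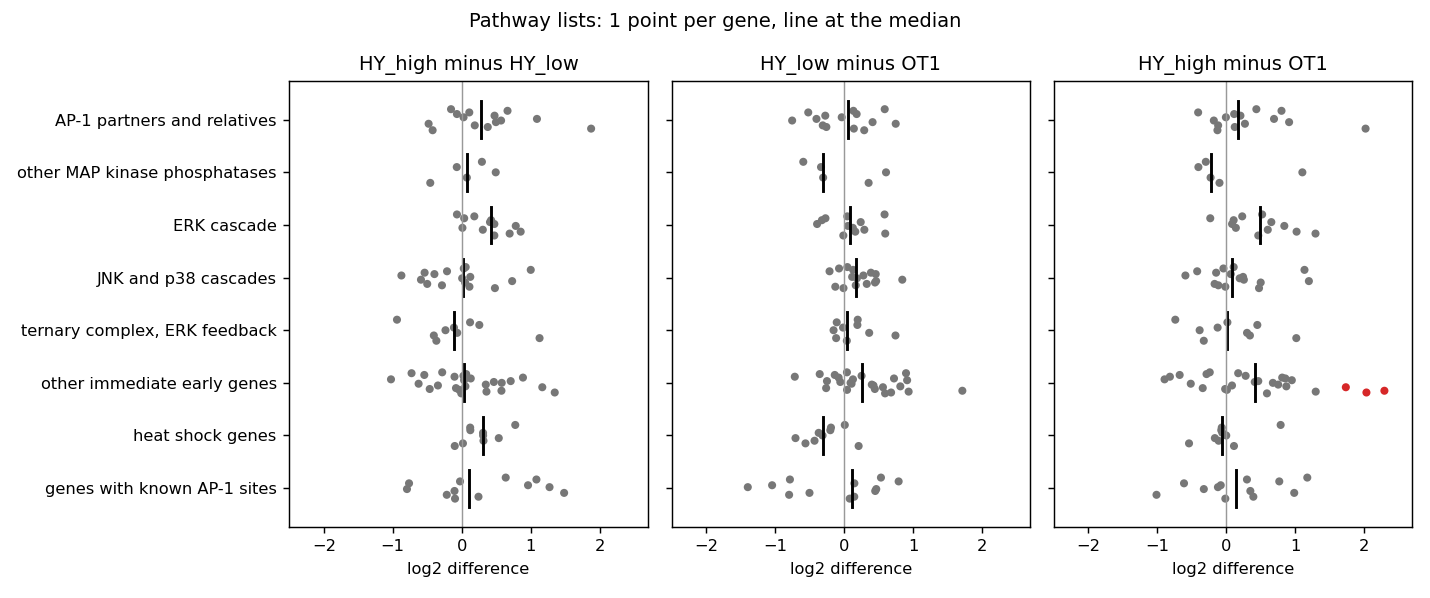
Log2 differences of the tested genes of 8 pathway lists in the 3 comparisons, 1 point per gene at its brightest probe set, with a black line at the list's median. Red points, 3 in number and all in HY_high minus OT1, passed with the array number as a block.

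The kinase lists had no calls, with or without the block. The ERK cascade list, 12 genes tested, had medians of 0.42, 0.09 and 0.49 in the same order, and its gene with the smallest p was Sos1, a Ras exchange factor, at 1.29 ± 0.53 in HY_high against OT1 (limma adjusted p = 0.9999). Sos2, a second exchange factor, had 1.02 in that comparison (adjusted p = 0.9999). The JNK and p38 list, 16 genes, had medians of 0.02, 0.18 and 0.09. Its genes with the smallest p were Mapk12, a p38 kinase, at 1.13, and Map3k8, a kinase upstream of ERK, at 1.198, both in HY_high against OT1. The ternary complex factors and ERK feedback genes, 9 tested, had medians of -0.11, 0.04 and 0.02, with the Ets factors Elk3 at 1.13 in HY_high against HY_low and Elk4 at 0.75 in HY_low against OT1. Of the other MAP kinase phosphatases, 5 of 13 were tested, with medians of 0.07, -0.30 and -0.23, and Dusp16, a JNK phosphatase, had 1.10 in HY_high against OT1, with Ptpn5, a tyrosine phosphatase of ERK and p38, at -0.59 in HY_low against OT1. None of Mapk12, Map3k8, Elk3, Elk4, Dusp16 and Ptpn5 passed, with limma adjusted p from 0.9997 for Elk3 to 0.99996 for Elk4 and Ptpn5.

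Heat shock genes, which encode chaperones, had medians of 0.31, -0.31 and -0.07 over 9 tested genes. Dnajb1, a heat shock cochaperone, read 15.4, 9.02, 15.6 and 8.63 in OT1 and 6.76, 6.50, 7.38 and 8.17 in HY_low. The groups did not overlap, which was so for 1.63% of all tested probe sets. The difference of -0.70 ± 0.41 did not pass (limma adjusted p = 0.99996). Hspa5, a chaperone of the endoplasmic reticulum, had 0.79 in HY_high against OT1 (limma adjusted p = 0.9999), which was 0.088 without OT1 array 1 and 1.29 without HY_high array 1. Genes with known AP-1 sites had medians of 0.11, 0.12 and 0.14 over 12 tested genes. Fasl, the ligand of the death receptor Fas, had 1.49 ± 0.54 in HY_high against HY_low, at 5.23, 2.66, 3.67 and 8.54 against 1.82, 1.57, 1 and 2.48, and did not pass (limma adjusted p = 0.9997). Il2ra, a chain of the interleukin 2 receptor, had 1.17 in HY_high against OT1 (adjusted p = 0.993). 

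Probe sets most like each member were sought by Pearson's r of log2 values over the 12 arrays, the nearest 3 being taken for each. The 27 neighbours had r from 0.733 to 0.896 and 0 of them were members. For Jund they were Sin3a (r = 0.89), Mapre1 (0.89) and Ddx19b (0.85), and for Dusp2 Casp4 (0.87), Thap4 (0.86) and Prp2 (0.85). Since arrays that share a number are alike, these values carry the differences between numbers as well as those between groups, and they are given as a description.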

How the data were processed

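The deposited table gives 1 intensity for each of 12488 probe sets on 12 arrays, on a linear scale as the authors deposited it; background correction, summary over probes and scaling are not given in the sources used. Array medians were 3.33 to 3.97, the share of values at 1 was 3.00% to 22.5%, and the highest share of equal values above 8 in any pair of arrays was 0.150%. The number of arrays limits the precision. After removal of 66 control probe sets, values were put on a log2 scale, and the 8695 with a mean above the 30th percentile, an intensity of 1.76, were tested with limma 3.58.1 in R 4.3.3 (1 mean per group, trended empirical Bayes, two-sided, Benjamini-Hochberg over all tested, threshold 0.05, 9 residual degrees of freedom). The script was tested on simulated data, with changes put into HY_high for probe sets with a mean above 8. Against OT1, without the block, it called 1 of 50 probe sets with a log2 change of 1. It called 28 of 50 with a change of 2, and made 4 false calls. Of the members only Jund and Dusp2 had a mean above 8, so these rates do not carry over to the others. The simulated arrays were drawn independently, without the likeness of arrays that share a number.

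A second fit held the array number as a block, with 6 residual degrees of freedom. Deviations from group means correlated at 0.341 to 0.593 in the 12 pairs of arrays of the same number and at -0.40 to 0.163 in the 36 others, so the data, not the labels, show that the numbers pair the arrays. An F test compared the numbers.

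The members and lists were chosen with earlier results of these data known. Symbols come from the platform annotation (10833 probe sets with 1 symbol, 396 with several, 1193 with none). Lists used the brightest probe set of a gene. Of each list the 2 genes with the smallest p in any comparison were eligible to be named, with any past the threshold, and for each member the 3 nearest in Pearson's r; Egr2 is named for its call with the block and Cd8b1, Klrb1a, Thy1, Cd2 and Ctss as markers that passed, chosen after their values were seen. The motif TGACG was added after the sequences were seen. No set was tested. Alternatives were other scalings, filters, floors, a pseudocount, variance priors, array weights, pairs of groups and leaving out each array.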

Additional observations from a re-analysis of the deposited data

Results flagged for a closer look

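Within groups of 4 arrays, 6 of 39 groups of member values held 1 array whose gap to the nearest other, on the log2 scale, exceeded Dixon's 95% critical share of the group's range. Chance gives about 1 in 20 for values free of ties, but in 3 of the 6 the other arrays were tied at 1, which fixes the gap as the whole range, so the number is not set against chance. Dusp2 on HY_low array 1 read 38.7, with the other 3 arrays at 24.8 to 26.1. Jun on HY_high array 2 read 1.12, with the others at 3.83 to 4.13. The remaining 4 lay in probe sets below the filter. On OT1 array 1 the dimmer Fos probe set read 3.78 and an Atf3 probe set 2.62, with the other OT1 arrays at 1 for both. The dimmer Dusp6 probe set read 1.91 on OT1 array 3, with the others at 1, and 1.76 on HY_high array 3, with the others at 1 to 1.03.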

How the results depend on the processing

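Over 22 alternatives the 27 differences of the 9 genes were recomputed 561 times, and 0 passed the threshold, with a lowest adjusted p of 0.186 (Dusp6, HY_high against OT1, replicate block). The block changed no call of a member. Direction changed 20 times in 8 of the 27. The difference of Fos in HY_high against HY_low was -0.022 with the floor at 8, that of Jund in HY_high against OT1 -0.015 with array weights, that of Dusp1 in HY_low against OT1 0.059 with array weights and that of Dusp6 in HY_low against OT1 0.0027 with scaling to one median. When arrays were left out in turn, the range was -0.039 to 0.79 for Atf3, -0.55 to 0.049 for Dusp1, -0.28 to 0.27 for Dusp6, -0.30 to 0.51 for Fos and -0.51 to 0.0039 for Fosb in HY_low against OT1, -0.32 to 0.12 for Fosb in HY_high against HY_low, and -0.061 to 0.27 for Jund and -0.63 to -0.12 for Fosb in HY_high against OT1. The difference of Jund between numbers passed in 19 of 20 alternatives and not without the intensity trend (adjusted p = 0.0897). The cause was not tested.

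Over all probe sets, HY_high against HY_low gave 2 calls, with 30 under the replicate block, 1 with scaling to one median, 0 without the filter (limma, 431 at an unadjusted p under 0.05), 1 with the filter at the 50th percentile, 4 with the floor at 8, 6 with log2(value + 16), 7 with array weights and 1 to 4 when 1 array was left out. HY_low against OT1 gave 2, with 8 under the block and 4 with array weights. HY_high against OT1 gave 15, with 118 under the block, 9 without the filter, 8 with the floor, 64 with array weights, 8 with only the 2 groups compared and 6 to 17 when 1 array was left out. Of 192 recomputed list medians 0 moved by over 1 SD of the list's genes. Values near 1 have no order, which limits Jun, Atf3, Dusp1 and Dusp6.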
